A study of Homo sapiens with 39 samples.

Results

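Interferon-stimulated genes are the genes a cell turns on after it senses an interferon, and 39 of them outside the OAS family were followed here across a colorectal cancer cell line and 12 derived lines. The members were chosen by gene symbol, and each of the 39 symbols matched 1 of the 45435 gene rows of the tables. Of these, 26 averaged at least 1 TPM (transcripts scaled to gene length and library total) over the 39 libraries and entered a test across 15003 genes. The other 13 lay under that level and are described by their values in each library.

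The cells were HCT116, an established human colorectal cancer line, in its Flp-In form, which carries a recombination site for inserting a transgene. Parental cells with no HNF4A construct were compared with 12 lines, each made to express 1 isoform of the nuclear receptor HNF4A fused to GFP, and each of the 13 groups had 3 libraries. Line 1 is the line of isoform 1, and so on. All groups, the parental one included, received 2.5 µg/ml doxycycline for 48 h. Parental cells had been kept in blasticidin S and zeocin and the lines in blasticidin S and hygromycin B, and these agents were withdrawn at induction. No line expressing GFP alone was analysed here, each isoform was represented by 1 line, and all 12 comparisons shared the same 3 parental libraries. Nothing in the labels says that the 3 libraries of a group came from separate cultures, so p-values measure only the spread between these libraries.

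Interferons bind receptors on the cell surface, and the Janus kinases of those receptors activate a complex of STAT proteins with IRF9 that binds the interferon-stimulated response element in the promoters of target genes. A related route, used by interferon gamma, acts through the gamma-activated site and raises IRF1, itself a transcription factor of many of the same genes. The products sense viral RNA, block viral entry, translation or release, or tag proteins with the ubiquitin-like modifier ISG15, and epithelial cells of the gut keep some of them on without added interferon. HNF4A is a transcription factor of liver and gut epithelium. Isoforms 1 to 3 share 1 amino terminus, isoforms 4 to 6 a variant of it, isoforms 7 to 9 the terminus of a second promoter and isoforms 10 to 12 a further one. Within each set of 3 the second form carries an insertion near the carboxyl terminus and the third a shortened carboxyl terminus.

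HNF4A itself averaged 31.5 TPM in parental cells and between 613.5 and 1071 TPM in the lines. The spread was widest for isoform 3, whose replicate 1 read 406.9 TPM against a highest library of 833.5 TPM. Of 7 epithelial markers, 6 passed the filter, and EPCAM, an epithelial surface protein, lay between 433 and 624 TPM in every library. The summed level of the 7 ran from 3060 to 3190 TPM in parental libraries, from 5090 to 5590 TPM in line 1, from 4480 to 4650 TPM in line 7 and from 2490 to 2780 TPM in line 6. The largest parts of that sum were the keratins KRT8, KRT18 and KRT19, with means of 1490, 892 and 607 TPM over the 39 libraries. In line 1 KRT8 and KRT18 differed by 0.85 and 0.96 and CDH1, or E-cadherin, by 0.89 on the log2 scale, and KRT19 was called higher in line 7 at 1.00. CDX2, of the same list, went the other way, with -0.67 in line 2 and at most 0.02, in line 4. With a limma adjusted p under 0.05 and no fold minimum, 5 of the 6 were higher and 1 lower in line 1 (all genes 19.8% and 38.7%). Of 5 immune cell markers 4 stayed under 1 TPM in every library, PTPRC no higher than 0.296 TPM and CD3E no higher than 0.0548 TPM. The exception was CD68, a lysosomal membrane protein abundant in macrophages, so that the summed level of the 5 ran from 4.16 to 5.51 TPM in parental libraries and up to 35.4 TPM in the isoform 1 line. CD68 was called higher in 9 lines, and PECAM1, an endothelial marker, in line 1 at 1.02 from a parental mean of 2.32 TPM. The epithelial sum was at least 3940 TPM in every library of lines 1, 2, 7, 8 and 11, the 5 lines with called members below, and at most 3410 TPM in every other library. The part of these marker levels in the results below was not tested. In bulk RNA, fewer cells making a transcript and less of it per cell cannot be told apart.

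The promoters of the members called in at least 1 line, and of ISG15, are shown first, and 5 of these 6 called genes hold the letters of the response element. RefSeq promoter windows (GRCh38.p14, 250 bases before to 50 after the start) were at hand for 32 of the 39 members. The element was searched on both strands as GAAANNGAAA, where matches may overlap, and occurred in 22 of the 32 members. By window, 26 of 41 member windows (63.4%) held it, against 1255 of 35116 windows of all genes (3.57%). The members were picked as interferon-stimulated genes, so this share describes the list and not the lines. The gamma-activated site, searched as TTCNNNGAA, occurred in 11 of 41 member windows (26.8%) and 7.66% of all windows. CAAAGTCCA, a form of the HNF4A motif, was in none of the member windows and in 0.384% of all windows, which says only that those letters are not in these stretches. Each line below gives the 160 bases before the RefSeq start, 5′ to 3′ on the gene's strand, with matches to the response element in capitals, or to the gamma-activated site for IRF1, which has no match to the first. A match in capitals that starts with TTTC is read on the opposite strand, and the second match of IFITM1 runs past the start, so that only its first bases appear.
IFI6: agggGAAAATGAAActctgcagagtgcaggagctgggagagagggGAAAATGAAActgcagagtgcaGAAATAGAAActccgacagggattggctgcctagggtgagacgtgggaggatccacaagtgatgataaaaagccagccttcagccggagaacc
IFITM1: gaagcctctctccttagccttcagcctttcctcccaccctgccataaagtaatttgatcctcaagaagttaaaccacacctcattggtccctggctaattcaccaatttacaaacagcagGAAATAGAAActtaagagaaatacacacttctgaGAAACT
IFIT1: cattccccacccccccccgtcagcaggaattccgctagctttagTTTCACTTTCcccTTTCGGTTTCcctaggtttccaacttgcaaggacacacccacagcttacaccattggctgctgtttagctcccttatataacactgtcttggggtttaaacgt
IFIT3: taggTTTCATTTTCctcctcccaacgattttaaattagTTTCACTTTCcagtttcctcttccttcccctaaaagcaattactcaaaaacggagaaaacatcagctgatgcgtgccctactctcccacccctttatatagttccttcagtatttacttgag
ISG20: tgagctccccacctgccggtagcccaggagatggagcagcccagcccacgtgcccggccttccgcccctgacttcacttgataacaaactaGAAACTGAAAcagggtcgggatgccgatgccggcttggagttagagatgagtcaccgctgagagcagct
IRF1: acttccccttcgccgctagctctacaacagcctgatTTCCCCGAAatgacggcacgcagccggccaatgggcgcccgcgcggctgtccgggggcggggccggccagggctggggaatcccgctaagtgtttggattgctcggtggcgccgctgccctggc
ISG15: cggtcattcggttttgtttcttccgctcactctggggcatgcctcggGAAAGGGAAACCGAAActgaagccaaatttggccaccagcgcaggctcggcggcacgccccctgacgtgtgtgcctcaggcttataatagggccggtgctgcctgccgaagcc
These windows lie at chr1:27672193-27672352 (IFI6, minus strand), chr11:313880-314039 (IFITM1, plus), chr10:89392463-89392622 (IFIT1, plus), chr10:89327837-89327996 (IFIT3, plus, the first of 2 windows), chr15:88638856-88639015 (ISG20, plus), chr5:132490774-132490933 (IRF1, minus) and chr1:1013337-1013496 (ISG15, plus). The 2 elements of ISG15 overlap, and IFI6 holds 3 separate ones. Among the 20 tested members called in no line with the fold minimum explained below, 11 of 17 with a window held the element too, STAT2, IRF9, DDX58, HERC6, SP110 and IFI35 being the 6 without it. A match describes letters and not a bound site.

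A member is called higher or lower in a line where limma on log2(TPM + 1) gave a Benjamini-Hochberg adjusted p under 0.05 over all 15003 genes together with a difference of at least 1 on the log2 scale. Of the 26 tested members 6 met this in at least 1 line, and 20 met it in none. There were 15 such calls among 312 pairs of member and line, 14 of them lower and 1 higher. The isoform 1 line had the most, with 5 members lower (IFI6, IFITM1, IFIT1, IFIT3, IRF1) and 1 higher (ISG20), where 1.78% of all genes were called lower and 2.74% higher. In the isoform 2 line 3 were lower (IFI6, IFITM1, IRF1) and 0 higher, against 1.37% and 2.36% of all genes. In the isoform 7, 8 and 11 lines 2 members, IFI6 and IFITM1, were lower and 0 higher. Of all genes, 0.960%, 0.473% and 0.653% were called lower in these 3 lines and 1.12%, 0.940% and 1.05% higher.

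The other 7 lines had 0 members called by limma. The percentages of all genes called lower there were 0.153% for isoform 3, 0.313% for isoform 4, 0.140% for isoform 5, 0.153% for isoform 6, 0.440% for isoform 9, 0.313% for isoform 10 and 0.133% for isoform 12. Called higher were 0.653%, 0.227%, 0.153%, 0.0933%, 0.387%, 1.13% and 0.440% in the same order. At an unadjusted p under 0.05, 16 members differed from parental cells in the isoform 3 line, 6 in line 4, 7 in line 5, 8 in line 6, 16 in line 9, 13 in line 10 and 13 in line 12. The percentages above follow the stricter rule and cannot be set against these counts, and the share of all genes at the unadjusted p is not given here. Members and all genes by adjusted p alone follow below. Leaving out replicate 1 of the isoform 3 line, the library with the least HNF4A, put IFI6 past the threshold there at -1.04. Leaving out parental replicate 3 did the same for IFITM1 in the isoform 9 line at -1.10.

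**Figure D1:**
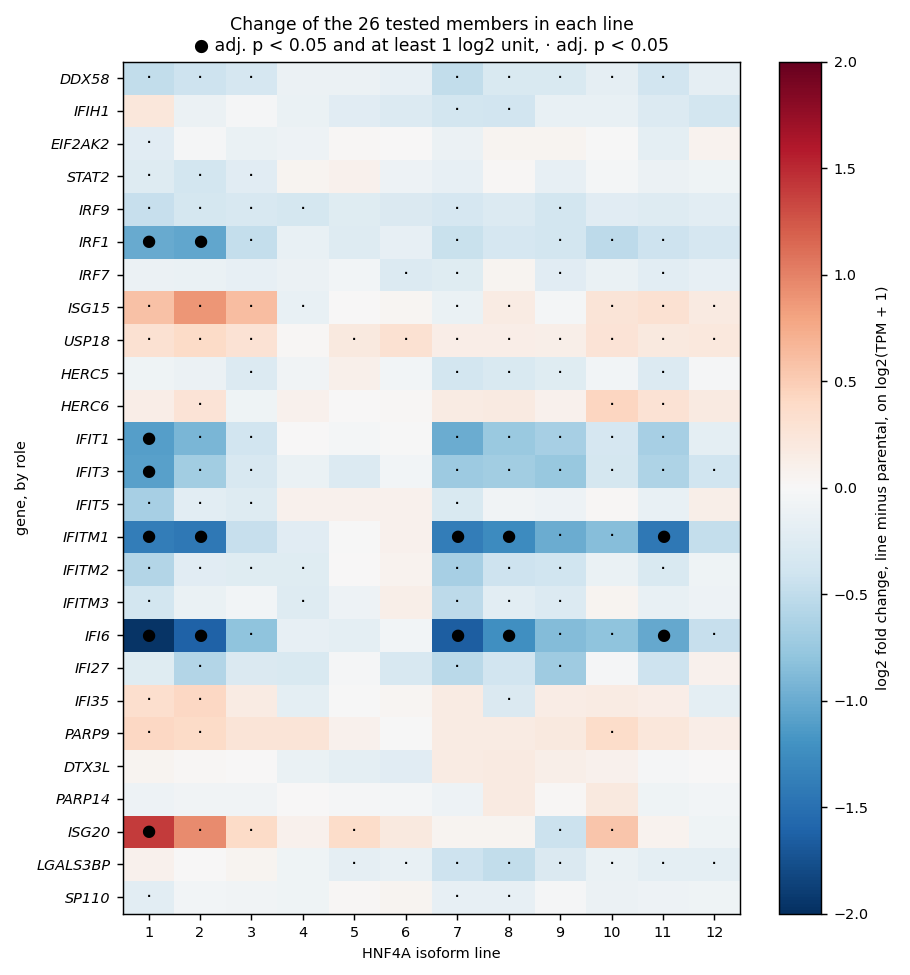
Difference of each of the 26 tested members (rows, grouped by role) from parental cells in each of the 12 lines (columns), as log2 fold change on log2(TPM + 1). Filled circles mark the 15 calls and small dots an adjusted p under 0.05 with less than 1 log2 unit. IFI6 and IFITM1 carry circles in lines 1, 2, 7, 8 and 11, and lines 3, 4, 5, 6, 9, 10 and 12 carry none.

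With the adjusted p alone and no minimum fold change, more members differed. The numbers lower were 13 of 26 in the isoform 1 line (all genes 38.7%), 11 in line 2 (35.6%), 10 in line 3 (14.7%), 4 in line 4 (10.1%), 1 in line 5 (5.22%) and 2 in line 6 (4.13%). They were 17 in line 7 (26.2%), 12 in line 8 (17.5%), 14 in line 9 (11.8%), 7 in line 10 (20.4%), 10 in line 11 (24.0%) and 3 in line 12 (6.65%). As a share of the members, the isoform 7 line had 65.4% lower, the isoform 9 line 53.8% and the isoform 1 line 50%, the last beside the highest share of all genes. The numbers higher were 5 in line 1 (all genes 19.8%), 6 in line 2 (19.7%), 3 in line 3 (11.2%), 0 in line 4 (6.26%, with 1 member higher at an unadjusted p under 0.05 in limma), 2 in line 5 (9.57%) and 1 in line 6 (5.94%). They were 1 in line 7 (13.4%), 2 in line 8 (16.9%), 1 in line 9 (10.9%), 5 in line 10 (17.0%), 3 in line 11 (14.5%) and 2 in line 12 (7.92%). Over the 12 lines 18 members were only ever lower by this rule, 3 (USP18, HERC6 and PARP9) only ever higher, and 3 (ISG15, ISG20 and IFI35) higher in some lines and lower in others. By limma's adjusted p DTX3L and PARP14 differed in 0 lines, with 2 and 0 lines at an unadjusted p under 0.05.

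The median log2 difference of the 26 members was -0.33 in line 7 (all genes -0.063), -0.24 in line 8 (-0.010), -0.23 in line 9 (-0.004) and -0.22 in line 1 (-0.107). It was -0.19 in line 11 (-0.059), -0.15 in line 3 (-0.043), -0.13 in line 2 (-0.090) and -0.12 in line 4 (-0.032). The smallest differences were -0.09 in line 12 (-0.003), -0.05 in line 10 (-0.021), -0.03 in line 6 (-0.006) and -0.01 in line 5 (0.012). Rescaling the libraries by the median of ratios moved the median of all genes by up to 0.10, in the isoform 1 line, and moved the split of calls. By adjusted p alone 8 members were then higher and 10 lower in line 1, 6 and 9 in line 2, 5 and 9 in line 3, 1 and 2 in line 4, 5 and 14 in line 7, and 5 and 9 in line 11. Rescaled shares of all genes, higher and lower, were 29.9% and 28.1% in line 1, 28.3% and 26.8% in line 2 and 16.3% and 12.3% in line 3. They were 11.9% and 7.61% in line 4, 21.6% and 20% in line 7, and 22% and 19.3% in line 11. Of all genes past that threshold, the higher ones were 33.9% in line 1 as deposited and 51.6% rescaled, 35.6% and 51.4% in line 2, 43.3% and 57.1% in line 3, 38.3% and 60.9% in line 4, 33.8% and 51.9% in line 7, and 37.7% and 53.3% in line 11. With the fold minimum, isoform 1 was the line in which that share moved by over 10 points, from 60.6% to 74.2%.

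**Figure D2:**
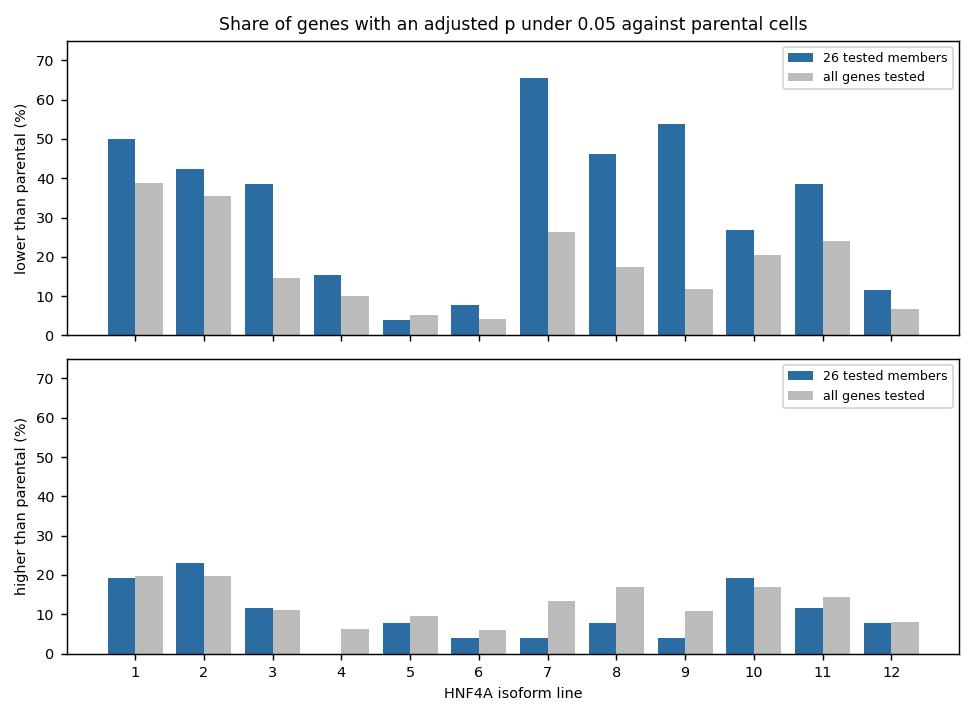
Percentage of the 26 tested members (blue) and of all genes tested (grey) with an adjusted p under 0.05 and a lower (upper panel) or higher (lower panel) level than parental cells, for each of the 12 lines (horizontal axis). In line 7 the bars for lower genes stand at 65.4% and 26.2%, and in line 1 at 50% and 38.7%.

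IFI6, a small mitochondrial and endoplasmic reticulum protein that restrains cell death and flavivirus replication, was called lower in 5 lines and had the largest difference of any tested member on the log2(TPM + 1) scale. With a pseudocount of 0.1 its -2.10 in line 1 came after the -2.16 of IFIT3. It lies at chr1:27666061-27672218 (GENCODE 29, GRCh38). Parental libraries held 24.6, 28.6 and 29.3 TPM, and the isoform 1 libraries 5.73, 6.38 and 6.9 TPM, so that the line kept 23% of the parental mean. The log2 difference there was -1.96 (SE 0.12, limma adjusted p = 3.2e-14). Isoform 7 libraries read 7.51, 8.3 and 8.49 TPM (-1.65), isoform 2 libraries 7.18, 8.42 and 9.51 TPM (-1.61), isoform 8 libraries 10.1, 11.1 and 12.1 TPM (-1.23) and isoform 11 libraries 11.8, 12.9 and 14.6 TPM (-1.02). None of these libraries reached the lowest parental one. The call in the isoform 11 line rested on narrow ground, since the difference was -0.96 after rescaling, -0.99 without parental replicate 2, -0.97 without parental replicate 3 and -0.95 without its own replicate 1. In the isoform 3, 9, 10 and 12 lines IFI6 differed by -0.81, -0.86, -0.81 and -0.46, each with an adjusted p under 0.05 and short of the fold minimum. The isoform 3 libraries ran from 11.3 to 21.2 TPM, the highest of them in replicate 1. Isoform 4, 5 and 6 lines averaged 24.3, 23.9 and 26.6 TPM, with adjusted p-values of 0.385, 0.352 and 0.872.

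IFITM1, a membrane protein that hinders the fusion of entering viruses, was called lower in the same 5 lines (chr11:313506-315272). Parental libraries held 3.79, 4.55 and 5.33 TPM. The isoform 2 libraries read 0.598, 1.18 and 1.48 TPM (log2 difference -1.43, SE 0.18, limma adjusted p = 6.37e-08) and the isoform 11 libraries 0.53, 1.13 and 1.64 TPM (-1.43, adjusted p = 1.59e-07). Differences were -1.39 in line 1, -1.38 in line 7 and -1.26 in line 8, and in all 5 lines every library lay under every parental one. Isoform 9, at 1.81 ± 0.527 TPM (mean ± SD, n = 3), stood just outside the rule with -0.99, and isoform 10 gave -0.85. The isoform 5 mean of 4.55 TPM and the isoform 6 mean of 4.84 TPM sat on either side of the parental mean of 4.56 TPM. Because 1 is added before the logarithm, these low levels give compressed differences, and with a pseudocount of 0.1 the isoform 2 difference was -2.04.

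Of the other membrane restriction factors, IFITM2 and IFITM3 were more abundant than IFITM1 and moved less. IFITM3, at 369, 369 and 388 TPM in parental cells, had the highest level per length of any member, and it read 248, 256 and 278 TPM in the isoform 7 line (-0.53, limma adjusted p = 9.87e-08). IFITM2 went from 48.1, 49.2 and 51.8 TPM to 29.6, 31 and 32.7 TPM in the same line (-0.66, adjusted p = 8.22e-08). By adjusted p alone IFITM2 was lower in 8 lines and IFITM3 in 5. The IFITM genes are close copies of each other, and in GENCODE 29 the span of IFITM2 (chr11:307631-315272) contains that of IFITM1, so their shares of reads depend on how reads were assigned. BST2, or tetherin, which holds budding virions at the cell surface, averaged 1.53 TPM in parental cells and lay under the filter over all libraries. Its libraries read 0.281, 0.47 and 0.67 TPM in line 8 and 1.51, 2.04 and 2.58 TPM in line 4. The authors' deposited table lists a log2 fold change of -0.69 for isoform 8 (adjusted p = 0.000975) and 0.21 for isoform 4 (adjusted p = 0.298). Fold changes from that table, here and below, are not on the scale of TPM ratios. Their sizes cannot rank the lines.

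Of the IFIT proteins, which bind viral RNA and block its translation, 2 of the 3 tested were called lower, both in the isoform 1 line. Without the fold minimum IFIT1 was lower in 8 lines and IFIT3 in 9. IFIT1 (chr10:89392546-89406486) read 2.49, 2.89 and 2.96 TPM in parental cells and 0.725, 0.726 and 0.832 TPM with isoform 1 (-1.10, SE 0.08, limma adjusted p = 9.25e-13). Isoform 7 libraries, at 0.757, 0.82 and 1.15 TPM, stood just outside at -0.99, and passed at -1.05 when parental replicate 1 was left out. IFIT1 libraries of the isoform 4, 5 and 6 lines ranged from 2.55 to 2.93 TPM, all within the parental range. IFIT3 (chr10:89327894-89340971), the partner that stabilises IFIT1, read 1.76, 1.8 and 1.95 TPM in parental cells and 0.283, 0.349 and 0.368 TPM with isoform 1 (-1.09, SE 0.11, adjusted p = 4.3e-10). The isoform 1 line kept 18.2% of the parental IFIT3 mean, and the isoform 9, 7, 2 and 8 lines 37.5%, 39.5%, 40.5% and 41.6%. In the 5 lines just named every IFIT3 library lay under every parental one. The added 1 compresses these differences too, since with a pseudocount of 0.1 they were -1.74 for IFIT1 and -2.16 for IFIT3 in line 1. With it 4 members in place of 2 were called lower in line 7 and in line 8. The share of all genes called with that pseudocount is not given here.

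IFIT5 and IFIT2, from the same cluster on chromosome 10, bracketed the family in abundance. IFIT5 read 17.6, 18.9 and 20.2 TPM in parental cells and 9.8, 12.4 and 12.5 TPM with isoform 1 (-0.67, limma adjusted p = 2.91e-08), short of the fold minimum. Its line means otherwise ran from 15.1 TPM in line 7 to 20.7 TPM in line 12. IFIT2 stayed under the filter, with 0.505, 0.651 and 0.794 TPM in parental cells. It read 0.0388, 0.0737 and 0.0787 TPM with isoform 9, 0.0597, 0.063 and 0.0794 TPM with isoform 7, and 0.0578, 0.0657 and 0.126 TPM with isoform 8. The authors' deposited table gives IFIT2 a log2 fold change of -1.05 in line 9 (adjusted p = 1.97e-09), -1.52 in line 7 (adjusted p = 5.12e-10) and -1.15 in line 8 (adjusted p = 6.27e-09). These sizes are smaller than the TPM show, since lines 9, 7 and 8 kept 9.81%, 10.4% and 12.8% of the parental mean. Isoform 4 libraries of IFIT2 held 0.165, 0.206 and 0.309 TPM, all under the parental ones.

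**Figure D3:**
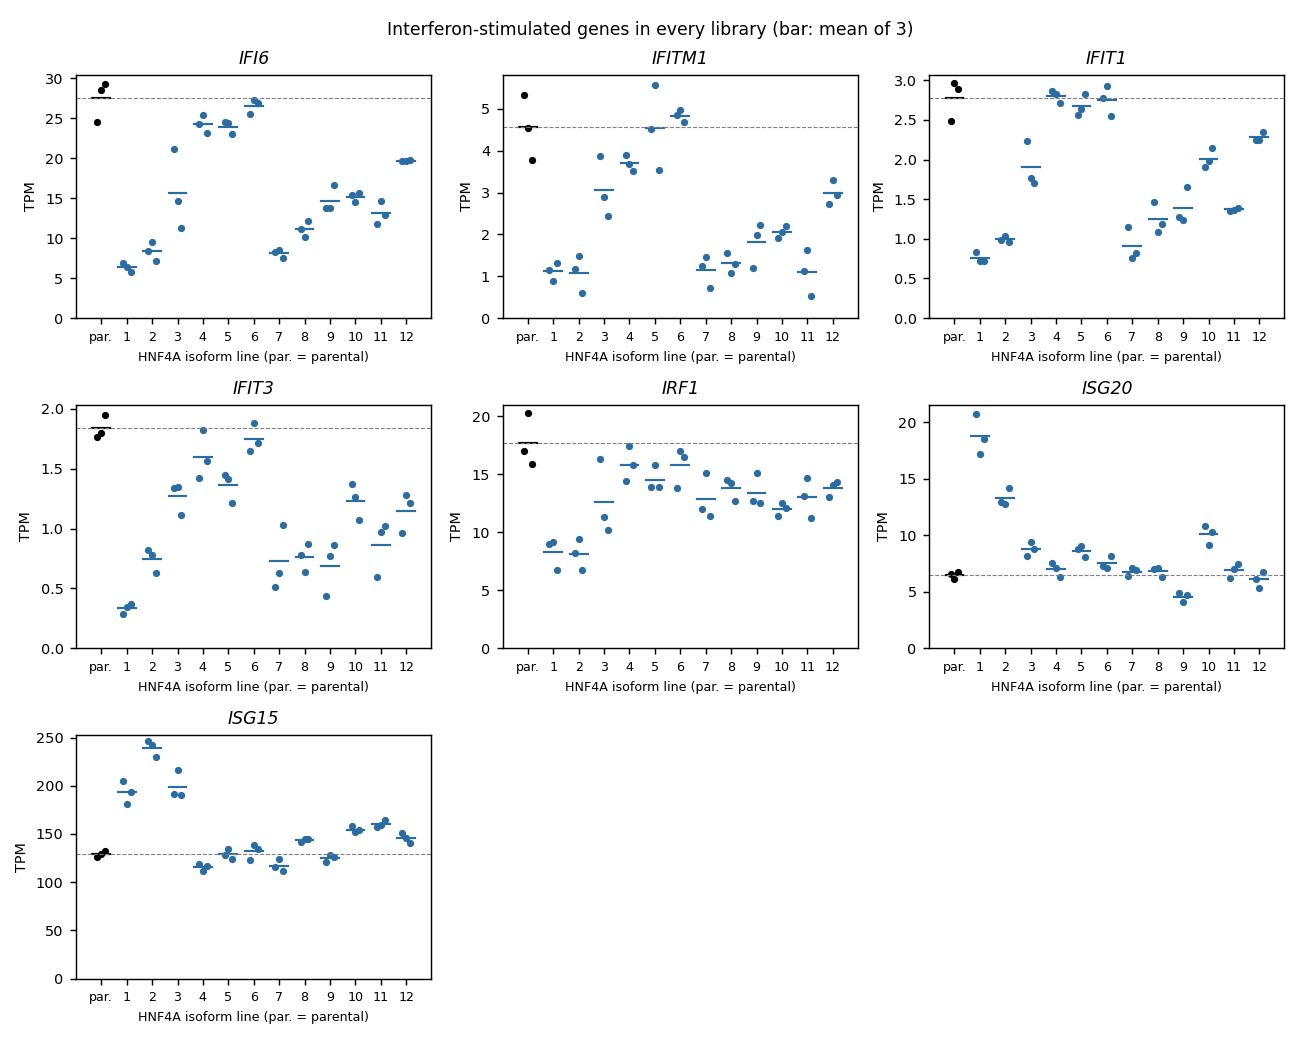
TPM of 7 members (panels, vertical axes from 0) in every library of parental cells (black) and of the 12 lines (blue), with a bar at the mean of 3 and a dashed line at the parental mean. IFI6, IFITM1, IFIT1 and IFIT3 are lowest in lines 1, 2, 7, 8 and 9 or 11 and near the parental mean in lines 4 to 6, while ISG20 is highest in lines 1 and 2 and ISG15 in lines 2 and 3.

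Of the 4 transcription factors of the pathway 1, IRF1, was called. IRF1 (chr5:132481609-132490798) read 15.9, 17 and 20.3 TPM in parental cells, 6.75, 8.21 and 9.39 TPM with isoform 2 (-1.04, SE 0.14, limma adjusted p = 1.36e-07) and 6.76, 8.99 and 9.17 TPM with isoform 1 (-1.01, adjusted p = 1.79e-07). The groups did not overlap, but both calls sat at the fold minimum. After rescaling the differences were -0.96 and -0.91, without parental replicate 2 they were -0.95 and -0.92, and without replicate 3 of the line itself -0.93 and -0.89. IRF1 averaged less than parental cells in all 12 lines, and isoform 4 came nearest with 15.8 TPM (adjusted p = 0.496). IRF9, the DNA-binding part of the STAT complex, also averaged less in all 12 lines, at most by -0.46 in line 1, where libraries of 5.59, 6.23 and 7.11 TPM faced 7.35, 9.57 and 10.5 TPM in parental cells. STAT2 read 19, 19.5 and 21.1 TPM in parental cells and 14.4, 14.7 and 16.3 TPM with isoform 2 (-0.37, adjusted p = 0.000116). IRF7, which drives interferon genes themselves, ranged from -0.28 in line 6 to 0.06 in line 8.

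In the ISG15 system the modifier itself was higher, not lower, in the lines of isoforms 1 to 3. ISG15 (chr1:1001138-1014540) read 126, 129 and 132 TPM in parental cells and 230, 242 and 246 TPM with isoform 2, a log2 difference of 0.89 (SE 0.05, limma adjusted p = 2.21e-15). Isoform 3 libraries held 190, 191 and 216 TPM (0.62) and isoform 1 libraries 181, 194 and 205 TPM (0.58), with no overlap with parental cells in any of the 3 lines. None of these reached the fold minimum. ISG15 was higher by adjusted p alone in 7 lines, the others being lines 8, 10, 11 and 12. The differences there were 0.16, 0.26, 0.31 and 0.18, smaller than in lines 1 to 3. The isoform 4 and 7 lines averaged 116 and 117 TPM, with differences of -0.15 and -0.14 and adjusted p-values of 0.032 and 0.0282, which became 0.173 and 0.364 after rescaling. USP18, the protease that removes ISG15 and dampens receptor signalling, was higher by adjusted p alone in 11 lines, by at most 0.38 in line 2, where libraries of 21.9, 22 and 22 TPM faced 16.1, 16.7 and 17.2 TPM. In isoform 9 its adjusted p was 0.0471 and, rescaled, 0.0513. HERC5, the main ligase for ISG15, was lower by adjusted p alone in 5 lines, by at most -0.37 in line 7 with libraries of 15, 16.6 and 17.1 TPM against 20.7, 21.6 and 21.7 TPM. HERC6 was higher in 3 lines, by at most 0.43 in line 10.

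ISG20, an exonuclease that degrades RNA, was the 1 member called higher (chr15:88636153-88656483). Its libraries read 6.14, 6.56 and 6.73 TPM in parental cells and 17.2, 18.5 and 20.7 TPM with isoform 1 (1.40, SE 0.08, limma adjusted p = 6.78e-15), which is 291% of the parental mean. Isoform 2 libraries held 12.8, 12.9 and 14.2 TPM, at 0.94 short of the fold minimum and at 1.02 past it after rescaling. Isoform 10 followed with 9.15, 10.3 and 10.8 TPM (0.56, adjusted p = 3.03e-06). Lines 3 and 5 were also higher, by 0.39 and 0.36 (limma adjusted p = 0.00079 and 0.00266). The isoform 9 line was the lowest, with 4.09, 4.7 and 4.85 TPM (-0.43, adjusted p = 0.000225). The isoform 1 line thus held the lowest level of IFI6 and the highest of ISG20, and both genes have the response element in the window printed above.

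None of the cytosolic RNA sensors, nor the RNA-activated kinase, was called in any line. DDX58, also named RIGI, averaged less in all 12 lines, with 3.2, 3.69 and 3.89 TPM in parental cells against 2.1, 2.27 and 2.35 TPM with isoform 1 (-0.50, limma adjusted p = 3.79e-07). By adjusted p alone it was lower in 8 lines. IFIH1, the sensor of long double-stranded RNA, was 1.96 ± 0.335 TPM in line 8 and 3.55 ± 0.46 TPM in line 1, around a parental 2.87 ± 0.466 TPM (SD, n = 3 each), with differences of -0.39 and 0.23. EIF2AK2, the kinase that halts translation when it binds double-stranded RNA, held 32.6, 36.2 and 36.7 TPM in parental cells and 28.3, 29.2 and 32.1 TPM with isoform 1 (-0.23, adjusted p = 0.0168, and 0.107 after rescaling). DHX58 lay under the filter and averaged 0.626 TPM in parental cells, from 0.309 TPM with isoform 1 to 0.834 TPM with isoform 4.

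The remaining tested members differed from parental cells by no more than 0.71 log2 units. IFI27, a mitochondrial protein, read 2.83, 3.59 and 3.98 TPM in parental cells and 1.24, 1.94 and 2.01 TPM with isoform 9 (-0.71, limma adjusted p = 0.00376), with an SE of 0.18 that was among the widest. IFI35 differed by 0.41 in line 2 and by -0.29 in line 8, past the adjusted p alone. PARP9 and DTX3L form a complex that adds ADP-ribose to ubiquitin, and their genes overlap at a shared promoter region on chromosome 3. PARP9 was higher in lines 1, 2 and 10 by 0.41, 0.38 and 0.36, and DTX3L ranged from -0.22 in line 6 to 0.18 in line 8, with its smallest adjusted p at 0.133. PARP14 ranged from -0.10 to 0.20. LGALS3BP, a secreted glycoprotein, read 245, 251 and 258 TPM in parental cells and 172, 178 and 184 TPM with isoform 8 (-0.50, adjusted p = 5.62e-10). SP110, a nuclear body protein, differed by at most -0.21, in line 1.

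The 13 members under the filter included several whose libraries separated widely at very low levels. IFI44, a cytoplasmic protein of uncertain function, read 0.609, 0.617 and 0.669 TPM in parental cells. It read 0, 0.0629 and 0.134 TPM with isoform 7, 0, 0.0629 and 0.135 TPM with isoform 8 and 0, 0.127 and 0.158 TPM with isoform 1, while isoform 4 held 0.52, 0.685 and 0.776 TPM. The authors' deposited table gives IFI44 a log2 fold change of -0.95 in line 7 (adjusted p = 0.000122), -0.58 in line 8 (adjusted p = 0.00134) and -1.37 in line 1 (adjusted p = 0.000547). By TPM, lines 7 and 8 each kept 10.4% of the parental mean and line 1 kept 15%, so the deposited sizes do not follow that order. TRIM22, an antiviral ubiquitin ligase, went from 0.316, 0.405 and 0.556 TPM in parental cells to 0.013, 0.0246 and 0.0763 TPM with isoform 2. For that line the authors' deposited table lists -1.66 (adjusted p = 9.86e-07), and for isoform 5, where TRIM22 averaged 0.441 TPM, it lists 0.01. At these levels few reads stand behind a value, since the mean normalised count of TRIM22 in the authors' deposited table for isoform 2 is 18.12 and that of IFI44 for isoform 7 is 13.66.

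The immunoproteasome subunits PSMB8 and PSMB9, which cut peptides for antigen presentation and lie side by side with overlapping spans on chromosome 6, were both under the filter. PSMB9 averaged 0.914 TPM in parental cells, 0.21 TPM with isoform 1, 0.214 TPM with isoform 7 and 1.25 TPM with isoform 5. PSMB8 libraries read 0.425, 0.441 and 0.49 TPM in parental cells, 0.0668, 0.147 and 0.156 TPM with isoform 7 and 0.592, 0.824 and 1.25 TPM with isoform 4. The authors' deposited table gives PSMB9 -1.08 in line 1 (adjusted p = 0.00818) and PSMB8 -0.57 in line 7 (adjusted p = 0.0326). MX1, a GTPase that traps viral nucleoproteins, averaged 0.569 TPM in parental cells, 0.322 TPM with isoform 8 and 0.903 TPM with isoform 5, and its parental libraries ran from 0.395 to 0.672 TPM. XAF1, a pro-apoptotic protein, averaged 1.19 TPM in parental cells and less in all 12 lines, down to 0.642 TPM with isoform 3. SAMD9, IFI44L, MX2 and SAMD9L averaged at most 0.12 TPM in parental cells, and the 39-library mean of SAMD9L was 0.00535 TPM.

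**Figure D4:**
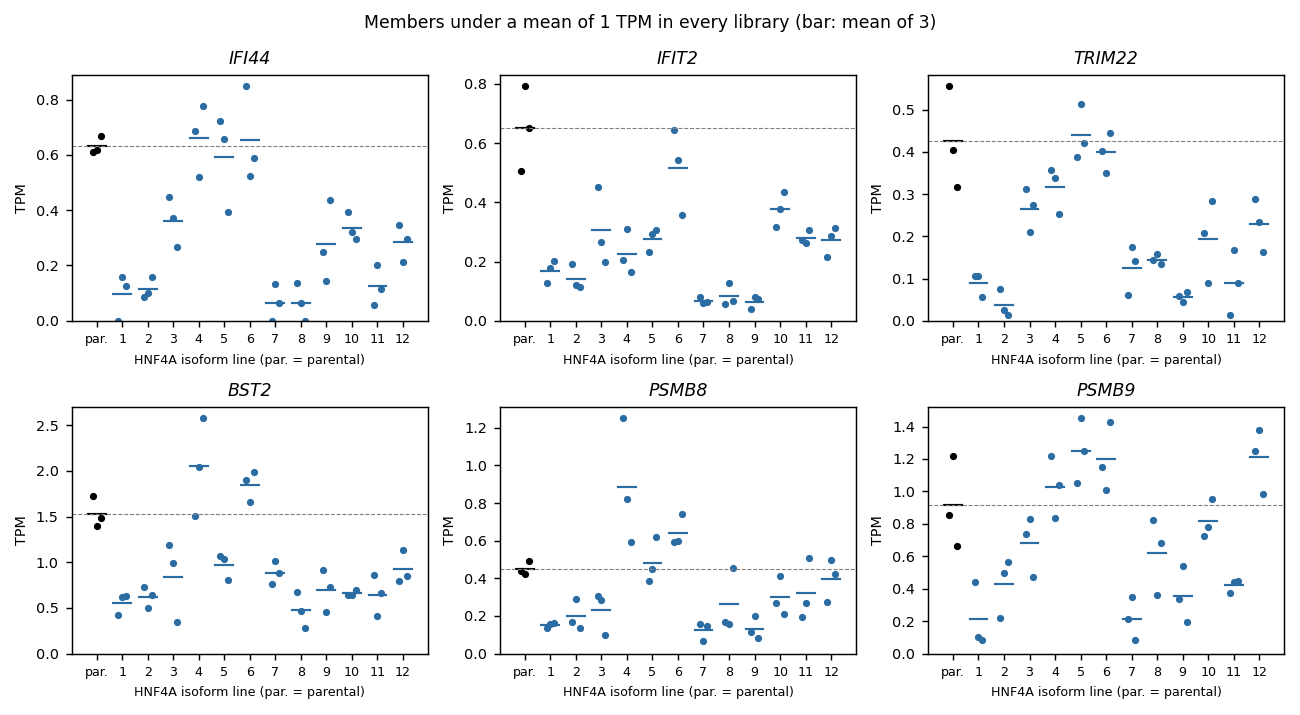
TPM of 6 members that averaged under 1 TPM over the 39 libraries (panels, vertical axes from 0), in every library of parental cells (black) and of the 12 lines (blue), with a bar at the mean of 3. IFI44 reads 0.609 to 0.669 TPM in parental libraries and at most 0.158 TPM in lines 1, 7 and 8, and PSMB8 is highest in line 4.

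The amino-terminal and carboxyl-terminal classes were compared with the 12 line means as the observations, additive in both, with 6 residual degrees of freedom. Lines of isoforms 4 to 6 exceeded those of isoforms 1 to 3 in IFI6 by 1.32 (SE 0.17, limma adjusted p = 0.00156) and in IFITM1 by 1.04 (SE 0.19, adjusted p = 0.00485). These were the 2 members called higher, where 0.587% of all genes were called higher, and 0 members were called lower, where 1.37% of all genes were. By adjusted p alone 9 members were higher and 5 lower in this contrast, against 22.1% and 12.6% of all genes. IFIT1 (0.79), IRF1 (0.65), IFIT3 (0.56) and IFIT5 (0.46) were on the higher side and ISG15 (-0.74) and ISG20 (-0.70) on the lower side, all short of 1 log2 unit. IFITM1 gave 0.99 after rescaling and 0.97 without the libraries numbered 3.

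Lines of isoforms 7 to 9 differed from those of isoforms 1 to 3 in 1 called member, ISG20, which was lower (a difference of -1.01, SE 0.18, limma adjusted p = 0.0136). Of all genes 0.493% were called lower and 0.0267% higher. By adjusted p alone 3 members were lower, ISG20, ISG15 (-0.70) and LGALS3BP (-0.45), and 1 higher, IRF1 (0.46), against 4.95% and 6.65% of all genes. ISG20 lost its call when no filter was set (adjusted p = 0.0587, difference -1.01) and fell just short of the fold minimum when the libraries numbered 3 were left out (adjusted p = 0.016). Between isoforms 10 to 12 and 7 to 9, limma called 0 members (8 at an unadjusted p under 0.05) and 0% of all genes. The forms with the insertion against those without gave 0 members (1 at an unadjusted p under 0.05) and 0% of all genes. The short carboxyl terminus against the other forms gave 0 members (6 at an unadjusted p under 0.05) and 0.00667% of all genes. At the unadjusted p alone, 1132, 454 and 2724 of all 15003 genes differed in these contrasts, in the same order. Each class holds 3 or 4 lines, so line and class cannot be told apart beyond that number.

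Genes upstream of the members were read from lists of the pathway. All 21 interferon genes stayed under 1 TPM in every library, and 5 of them were at 0 in all 39. The 6 receptor chains were all tested, and by adjusted p alone 3 were higher and 2 lower both in line 1, where 19.8% of all genes were higher and 38.7% lower, and in line 2 (19.7% and 35.6%). IFNGR1 and IFNGR2, the chains of the interferon gamma receptor, differed by up to 0.76 in line 1 and down to -0.64 in line 2. With the fold minimum 1 of 6 was called, in line 1 (2.74% of all genes higher), IFNLR1, the specific chain of the interferon lambda receptor, which read 9.24, 9.56 and 10.4 TPM in parental cells and 19.2, 20.9 and 24.2 TPM with isoform 1 (1.06, SE 0.10, limma adjusted p = 1.33e-10). Of 10 tested signalling components and regulators 7 were lower by adjusted p alone in line 1 and 6 in line 2, against the same 38.7% and 35.6% of all genes, and 1 was higher in each. TYK2, a Janus kinase, differed by -0.38 in line 2. With the fold minimum 1 of 10 was called lower, in lines 1 and 2 (1.78% and 1.37% of all genes), UBE2L6, the conjugating enzyme of the ISG15 system. UBE2L6 held 35.5, 35.6 and 35.8 TPM in parental cells, 12, 13.6 and 14.7 TPM with isoform 2 (-1.35, adjusted p = 3.18e-13) and 12.7, 13.3 and 14.8 TPM with isoform 1 (-1.33, adjusted p = 3.16e-13). ISG15 and its conjugating enzyme thus had their highest and lowest levels in the same isoform 2 line. Of 9 tested genes of nucleic acid sensing up to 4 were lower by adjusted p alone, the most in line 8 (17.5% of all genes), and IRF3 differed by -0.31 in line 2. With the fold minimum 1 of 9 was called lower, in lines 1 and 7 (1.78% and 0.960% of all genes), TMEM173, the adaptor STING, which went from 10.1, 11.1 and 11.9 TPM in parental cells to 3.88, 4.01 and 4.33 TPM with isoform 7 (-1.24) and 3.79, 4.52 and 4.93 TPM with isoform 1 (-1.15).

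A list of 38 further interferon-stimulated genes had 22 tested members. Without the fold minimum 11 of 22 were lower and 1 higher in line 7 (26.2% and 13.4% of all genes), and 8 lower and 7 higher in line 1 (38.7% and 19.8%). With the fold minimum 2 of 22 were called, TRIM38 and SLFN5, where 1.78% of all genes were called lower in line 1, 0.960% in line 7, 0.440% in line 9 and 0.313% in line 4, and 0.227% higher in line 4. TRIM38, a ubiquitin ligase, was called lower in lines 1, 7 and 9 and higher in line 4, with differences from -1.15 to 1.04, and SLFN5 was called lower in line 4 at -1.02. The chemokines CXCL9, CXCL10 and CXCL11 stayed at or under 0.189 TPM in every library. In the OAS family, OAS3 was called lower in lines 1 and 2, by up to -1.93, and differed with an adjusted p under 0.05 short of the fold minimum in lines 3 to 7 and 10 to 12, with -0.90 in line 10 and -0.83 in line 4, and OAS1 was called lower in isoforms 4 to 6 and higher in isoforms 1, 7, 8, 9 and 11, with differences from -1.72 to 2.00.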

How the data were processed

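Poly(A) RNA of 13 groups of 3 libraries was sequenced after a strand-specific preparation, per the labels' protocols. The authors deposited gene-level TPM per library. The submitters' processing notes name Trimmomatic 0.36, FastQC 0.11.5, kallisto 0.44.0, DESeq2 1.22.2 and GRCh38.p12, without roles. Per the file headers the deposited tables also hold a comparison of each line with parental cells: a mean normalised count (treated as a score), a log2 fold change with its error and an adjusted p-value, with settings not given in the sources used here. TPM keeps no depth, so depth per library is unknown and no counting interval is given. Between 27884 and 30550 rows were above 0 per library.

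Of the rows, 12 named for HNF4A isoforms were summed to HNF4A. Genes averaging 1 TPM or more were tested with limma 3.58.1 in R 4.3.3 on log2(TPM + 1), with a mean-variance trend, 1 fit for all 13 groups (26 residual degrees of freedom) and Benjamini-Hochberg adjustment over 15003 genes. A fold change is on that scale and understates changes of low genes. The fit was tested on simulated data. Class contrasts used the 12 line means. The members and lists were chosen with earlier results of these data known. Selected for values by library were the 12 members called in the most lines (then by size of change) and the most abundant member of each role. Of these, MX1, DTX3L, SAMD9 and PSMB9 are given by means or ranges only. The libraries of isoforms 4 and 5 carry no usable replicate number. Alternatives were another pseudocount, other filters, median-of-ratios scaling, a replicate block, 2-group fits, no fold minimum and leaving out each library.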

Additional observations from a re-analysis of the deposited data

Results flagged for a closer look

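A difference between sets of lines, tested as such, drew attention to 3 results. The lines of isoforms 4 to 6 had more IFI6 than those of isoforms 1 to 3, by 1.32 on the log2 scale (limma adjusted p = 0.00156), and more IFITM1, by 1.04 (limma adjusted p = 0.00485). ISG20 was lower in the lines of isoforms 7 to 9 than in those of isoforms 1 to 3, with a difference of -1.01 (limma adjusted p = 0.0136). The cause of these differences was not tested. Groups of 3 libraries are too small for a search for single outlying libraries.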

How the results depend on the processing

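Of 18 calls of a member (15 in lines and 3 between classes), 13 kept their call under every alternative in which the gene was tested. Under the filter at a mean of 5 TPM, IFIT1, IFIT3 and IFITM1 had no test, so their calls were not checked there. The 5 that lost it (IRF1 in isoforms 1 and 2, IFI6 in isoform 11, IFITM1 between isoforms 4 to 6 and 1 to 3, and ISG20 between isoforms 7 to 9 and 1 to 3) have their values in the report, and 0 reversed. With no minimum fold change the numbers of members higher and lower were 5 and 13 for isoform 1, 6 and 11 for isoform 2, 3 and 10 for isoform 3, 0 and 4 for isoform 4, 2 and 1 for isoform 5, 1 and 2 for isoform 6, 1 and 17 for isoform 7, 2 and 12 for isoform 8, 1 and 14 for isoform 9, 5 and 7 for isoform 10, 3 and 10 for isoform 11, and 2 and 3 for isoform 12. With a pseudocount of 0.1 there were 5 lower and 1 higher in isoform 2, 4 lower in isoform 7, 4 lower in isoform 8, 2 lower in isoform 9, 1 lower in isoform 10, and 4 members called between isoforms 4 to 6 and 1 to 3. For that pseudocount and the settings that follow, the shares of all genes called are not given here. The filter at a mean of 5 TPM, which removes IFITM1, IFIT1 and IFIT3 from the test, left 2 lower in isoform 1, 1 lower in isoforms 7, 8 and 11, and 1 member called between isoforms 4 to 6 and 1 to 3. In isoform 2 it left IFI6 and IRF1 lower. Median-of-ratios scaling gave 1 higher in isoform 2, 1 lower in isoform 11, and 1 between isoforms 4 to 6 and 1 to 3. It also took IRF1 out of the members called lower in isoforms 1 and 2. With no filter, 0 members were called between isoforms 7 to 9 and 1 to 3. Leaving out single libraries gave ranges of lower members of 4 to 5 (isoform 1), 2 to 3 (isoform 2), 0 to 1 (isoform 3), 2 to 3 (isoform 7), 0 to 1 (isoform 9) and 1 to 2 (isoform 11). Leaving out a replicate number gave 1 to 2 members between isoforms 4 to 6 and 1 to 3, and 0 to 1 between isoforms 7 to 9 and 1 to 3. Fits of the 2 groups alone changed no number of members called.

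With the replicate block, possible for the 10 lines with numbers, the count of called members stayed at 5 lower and 1 higher in isoform 1, 3 lower in isoform 2 and 2 lower in isoforms 7, 8 and 11, and it changed no other call. Same-numbered libraries correlated weakly in their deviations from group means (medians of 0.0512, 0.0542 and 0.0564, with 15, 12 and 11 of 55 pairs over 0.1), though 29 of 33 libraries correlated best with their own number, a hint from the data and not the design. The main limits are 1 line per isoform, the shared parental libraries, differing selection agents before induction, no GFP control, and an unknown depth at the low levels of many members.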
